A study of Homo sapiens with 8 samples.

Results

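The DNA replication and E2F genes are 59 genes that load, fire and run replication origins, supply the fork with nucleotides and chromatin, or belong to the E2F and cyclin E group that drives entry into S phase. The list was drawn up by gene function with earlier results of these data known, and its genes were found by symbol among the 27945 gene rows of the count table, where every one of the 59 symbols was present. Nascent transcription was measured by fastGRO-seq, a run-on assay in which engaged RNA polymerases of isolated nuclei extend their transcripts by a short labelled stretch that is then purified and sequenced. A count is a read over the whole gene body, introns included.

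The cells were IMR90, a primary human lung fibroblast line, carrying an inducible fusion of the estrogen receptor with oncogenic H-RASG12V (ER:RAS). There were 4 groups of 2 libraries. Control cells were labelled WT and control, with no hairpin given. Senescent cells were those in which the RAS fusion had been induced, and they carried a control hairpin (shControl), a hairpin against METTL3 (shMETTL3) or a hairpin against METTL14 (shMETTL14). METTL3 and METTL14 together form the methyltransferase complex that places N6-methyladenosine on RNA. The hairpin and the senescent state came together, so their parts in a difference from control cells cannot be told apart, and a single hairpin stood for each knockdown. The study describes its replicates as independent experiments. Drosophila spike-in reads were not used here, so each value is relative to the other genes of its library, and in these bulk nuclei fewer cycling cells and less transcription per cell cannot be told apart.

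Replication starts at origins bound by the origin recognition complex, onto which CDC6 and CDT1 load the ring-shaped MCM helicase. Kinases, CDC45 and the GINS complex then turn this ring into the active helicase, behind which the primase, the polymerases, the sliding clamp PCNA and its loader copy both strands. In fibroblasts that leave the cell cycle, the retinoblastoma family holds the E2F transcription factors at the promoters of many of these genes and represses them. E2F7 and E2F8 are the atypical members of the E2F family, which act as repressors and lack the dimerization partner that other E2F proteins use.

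Promoter sequence gave a view of the genes that did not depend on the counts. RefSeq windows on build GRCh38.p14, from 250 bases before to 50 after the gene start, were given for 49 of the 59 genes. No window was at hand for CCNE2, DNA2, DSCC1, E2F8, GINS4, MCM4, MCM5, POLD3, RPA2 and RPA3. The E2F consensus was searched on both strands as TTTCCCGC, TTTCGCGC, TTTGCCGC and TTTGGCGC, and matches were allowed to overlap. It was found in 22 of the 49 windows (44.9%), against 3.33% of all 27305 windows. The CCAAT box, the NF-Y motif CCAAT, was in 28 of the 49 (57.1%) against 35.7% of all windows. The cell cycle homology element, searched as TTTGAA, was in 2 of the 49 (4.08%) against 15.4%. By role, the E2F consensus was in 5 of the 6 MCM windows and in 4 of the 7 windows of polymerases and primase. It was in 1 of the 4 windows of nucleotide supply genes, that of TYMS. A match is a description of letters and not a bound site, and a window without a match says only that these letters were not in it.

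The stretches below are the 160 bases just before the start of 5 genes on whose counts the results turn, or whose promoters differ most in these motifs, written 5′ to 3′ on the strand of the gene with every motif match in capitals. MCM6 (chr2:135876444-135876603, minus strand) has 4 E2F matches, in overlapping pairs that read TTTGGCGC on one strand and TTTCGCGC on the other, and 2 CCAAT boxes. POLE (chr12:132687343-132687502, minus strand) has 1 E2F match and a pair of CCAAT boxes that overlap on opposite strands. RRM2 (chr2:10122579-10122738, plus strand) has 3 CCAAT boxes and no E2F match. CDC45 (chr22:19479760-19479919, plus strand) has 4 CCAAT boxes and no E2F match. E2F7 (chr12:77065570-77065729, minus strand) has 2 CCAAT boxes and no E2F match.
MCM6: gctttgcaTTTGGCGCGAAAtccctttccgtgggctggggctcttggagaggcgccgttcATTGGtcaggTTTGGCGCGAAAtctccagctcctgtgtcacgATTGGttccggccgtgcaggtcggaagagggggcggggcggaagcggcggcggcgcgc
POLE: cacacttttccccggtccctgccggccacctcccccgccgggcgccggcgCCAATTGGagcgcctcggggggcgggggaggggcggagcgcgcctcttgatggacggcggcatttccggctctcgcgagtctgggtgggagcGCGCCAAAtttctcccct
RRM2: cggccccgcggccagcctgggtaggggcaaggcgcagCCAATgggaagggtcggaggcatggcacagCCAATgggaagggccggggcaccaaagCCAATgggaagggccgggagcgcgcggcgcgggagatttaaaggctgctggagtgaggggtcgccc
CDC45: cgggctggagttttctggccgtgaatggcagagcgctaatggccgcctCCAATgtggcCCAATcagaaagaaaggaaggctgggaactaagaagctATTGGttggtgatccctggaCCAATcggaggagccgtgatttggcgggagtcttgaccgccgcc
E2F7: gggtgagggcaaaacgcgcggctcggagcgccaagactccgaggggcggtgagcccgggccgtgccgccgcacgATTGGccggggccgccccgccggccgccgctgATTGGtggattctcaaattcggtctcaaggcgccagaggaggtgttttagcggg

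**Figure D1:**
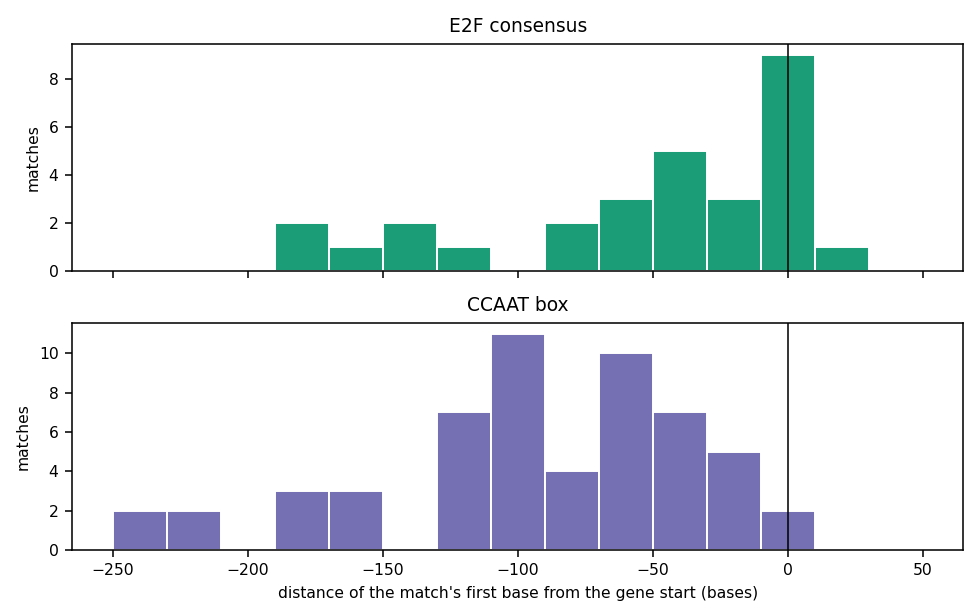
Histograms of the distance in bases from the gene start (vertical line at 0) to the first base of each match, in bins of 20 bases, for the E2F consensus (top) and the CCAAT box (bottom) in the 49 windows. The E2F matches gather near the start, while most CCAAT boxes lie farther upstream of it.

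Counts behind the genes were thin. Library totals ran from 14897360 to 20306299, but ribosomal RNA rows took 86.2% to 92.5% of them, which left 1513930 to 2048475 counts on other genes. The 59 genes together held 1482 to 3088 counts per library. Of the 59, 47 passed the filter on low counts and were tested among 12844 genes, with a median mean count of 19.5 against 48.3 for all tested genes. The 12 that did not pass were ORC6, CDT1, GINS2, GINS3, PRIM1, TIPIN, DSCC1, E2F1, E2F2, E2F8, CCNE1 and CCNE2, with 0 to 17 counts in a library. MCM10, ORC1, CDC45, GINS1, RRM2, TK1 and CLSPN, 7 of the 47, passed only through the control libraries and so had to stand higher there. Counting did not separate the strands of most overlapping genes. Other rows overlapped more than 5% of the gene body of MCM7, MCM8, TYMS, E2F2, GINS4 (67.8%) and RPA3 (95%), whose counts are therefore uncertain. Part of PRIM2 has a near-identical copy elsewhere in the human genome, and its counts are uncertain for that reason. Normalized counts below are counts divided by the TMM-scaled library size and brought to the mean size of the 8 libraries.

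The labels were checked first. METTL3 had normalized counts of 91.0 and 52.3 in senescent shControl and 16.4 and 18 in shMETTL3 libraries, a log2 fold change of -2.04 ± 0.31 (SE, n = 2 against 2, edgeR quasi-likelihood adjusted p = 1.79e-05). METTL14 had 28.4 and 31.2 in shControl and 18 and 14.7 in shMETTL14 libraries, which did not overlap, but the difference of -0.86 ± 0.34 did not pass the test (edgeR adjusted p = 0.0763). Nascent counts need not follow a hairpin that acts on mature RNA. MKI67, a marker of cycling cells, had normalized counts of 198 and 175 in control, 29.6 and 59.0 in shControl, 1.03 and 0 in shMETTL3 and 1.00 and 3.16 in shMETTL14 libraries. CDKN1A, the cyclin-dependent kinase inhibitor p21, had 406 and 371 in control and 858 and 828 in shControl, 782 and 610 in shMETTL3 and 1816 and 1577 in shMETTL14 libraries. IL1B, a cytokine of the senescent secretome, had 2 and 3 raw counts in control against 2161 and 2189 in shControl libraries. The 10 fibroblast markers had summed raw counts of 14211 to 37504, highest in the control libraries, whereas 4 epithelial markers summed to 0 to 9, 3 endothelial markers to 2 to 10 and 3 leukocyte markers to 17 to 63. The leukocyte sum was 17 and 18 in control and 27 to 63 in the senescent libraries, nearly all of it CD68, a lysosomal protein that fibroblasts also carry, while PTPRC had 0 to 4 counts and CD3E 0 in every library.

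The genes other than E2F7 were lower as a sum in every senescent library. Their summed normalized counts were 2170 and 2266 in control, 1410 and 1617 in senescent shControl, 1203 and 1304 in shMETTL3 and 1179 and 1158 in shMETTL14 libraries. No senescent library reached a control library. E2F7 went the other way and took 2.78% and 3.13% of the members' counts in control, 24.7% and 20.8% in shControl, 56.9% and 55.5% in shMETTL3 and 20.4% and 31.2% in shMETTL14 libraries. The 12 genes under the filter summed to 79 and 97 raw counts in control, 38 and 56 in shControl, 24 and 25 in shMETTL3 and 36 and 30 in shMETTL14 libraries. In these too the control libraries were highest. Within senescent shControl cells replicate 2 stood above replicate 1 in 33 of the 47 tested genes (70.2%, against 49.7% of all tested genes), so that the first of these libraries had the lower replication signal.

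**Figure D2:**
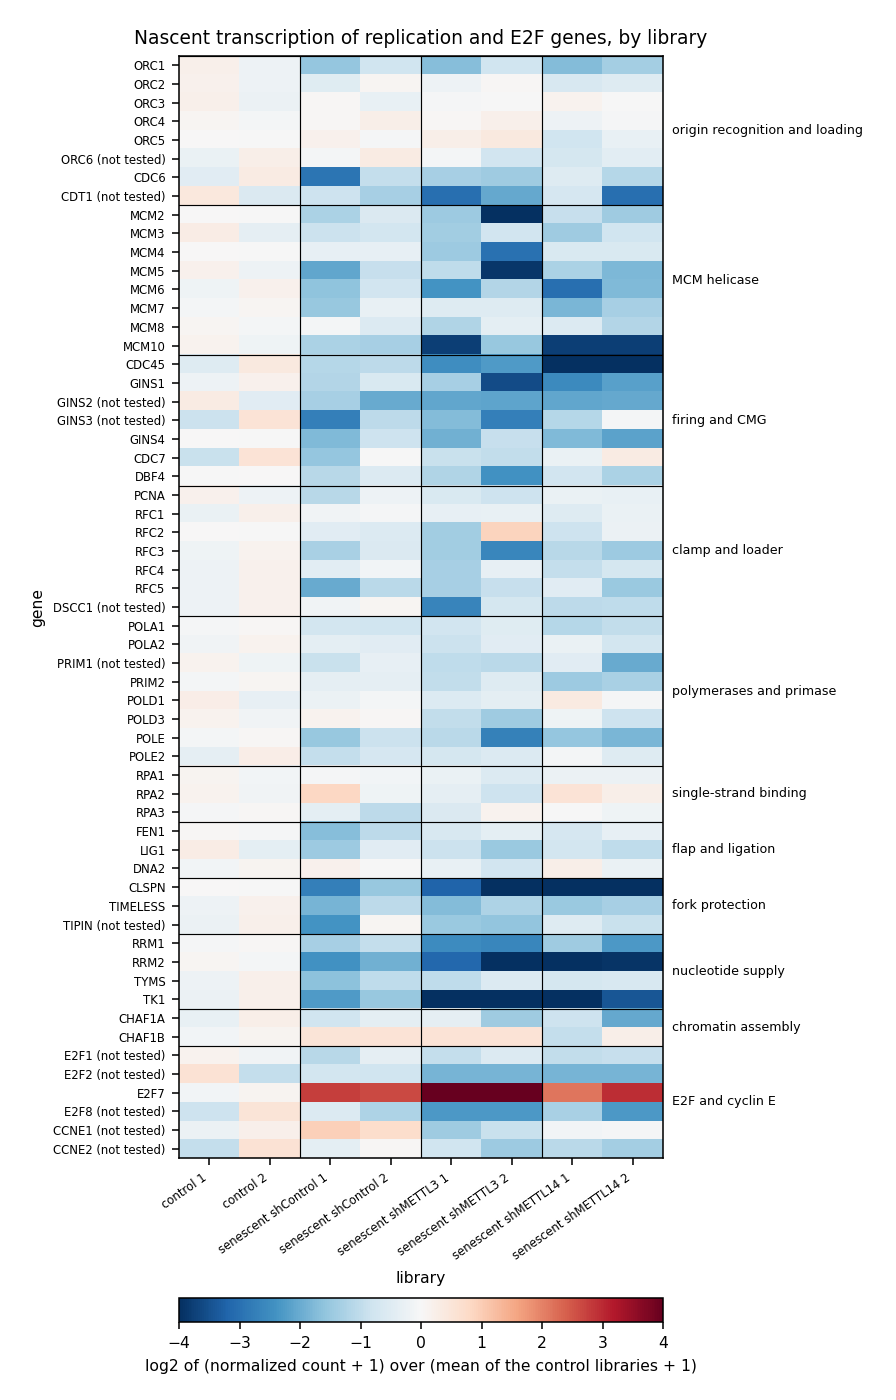
Heat map of the 59 genes (rows, grouped by role) in the 8 libraries (columns), coloured by the log2 of the normalized count plus 1 over the control mean plus 1, with blue below and red above control and colours saturated at 4 either side. The nucleotide supply and fork protection rows are blue in the senescent libraries apart from a nearly white value of TIPIN, most of the origin recognition rows are pale, and E2F7 is the 1 deep red row.

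The first comparison asked how these genes were transcribed in senescent shControl against control cells. Of the 47 tested genes 12 were lower at an adjusted p below 0.05, where 13.3% of all tested genes were lower, and 1 was higher (E2F7), where 13.3% of all tested genes were higher. The median log2 fold change of the 47 was -0.79 against -0.03 for all tested genes, and 32 of the 47 had both senescent libraries below both control libraries, which held for 34.5% of all tested genes. Without the 7 genes that passed through control alone, 9 of 40 were lower with a median of -0.60. All 7 are also among the 32, so that count includes genes that had to stand higher in control. The number of lower genes rests on single libraries. It was 1 without senescent shControl replicate 1, 10 without shControl replicate 2 and 3 without control replicate 2. DESeq2 called 2 lower, and scaling by library size alone, which shifts the median of all genes by -0.53, called 34.

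The 4 nucleotide supply genes were all called lower in senescence, where 13.3% of all tested genes were lower. RRM1 and TYMS passed the filter through more than the control libraries. RRM2 and TK1 passed through control alone, so that their tests against control are no support for the role. RRM2, the regulated small subunit of ribonucleotide reductase, had normalized counts of 64.7 and 58.3 in control and 10.6 and 15.6 in senescent shControl libraries, with no overlap. Its log2 fold change was -2.21 ± 0.41 (SE, n = 2 against 2, edgeR adjusted p = 0.000145). RRM1, the large subunit, went from 84.1 and 89.7 to 34.3 and 44.5, a change of -1.14 ± 0.27 (edgeR adjusted p = 0.00186). TYMS, thymidylate synthase, went from 39.9 and 53.1 to 14.2 and 22.3, a change of -1.34 ± 0.34 (edgeR adjusted p = 0.00353), although 25.1% of its body overlaps other genes. RRM1 and TYMS thus stood at separate levels in the senescent libraries, and so did RRM2, which had to stand higher in control. The call of TYMS was lost in 3 of 18 alternatives, by DESeq2 and without control replicate 2 or shControl replicate 1. That of RRM1 was lost without shControl replicate 1. RRM2 kept its call in all 17, which is no support either, since the filter let it in through control alone. TK1, the thymidine salvage kinase, had raw counts of 20 and 28 in control and 3 and 6 in shControl libraries, a change of -2.01 ± 0.59 (edgeR adjusted p = 0.0122), which was lost when any 1 of these libraries was left out (6 of 17 alternatives in all, adjusted p up to 0.205).

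Of the fork protection genes CLSPN and TIMELESS were called lower, and CLSPN had passed the filter through control alone. CLSPN, which encodes claspin, the adaptor that passes the replication stress signal to CHK1, had raw counts of 42 and 42 in control and 4 and 11 in shControl libraries. The change was -2.09 ± 0.50 (edgeR adjusted p = 0.00239). TIMELESS, which travels with the fork, had normalized counts of 28.3 and 37.4 in control against 8.28 and 15.6 in shControl libraries, a change of -1.44 ± 0.41 (edgeR adjusted p = 0.00957). The call was lost in 2 of 17 alternatives for CLSPN (edgeR or DESeq2 adjusted p up to 0.0895), by DESeq2 and without shControl replicate 1, and in 4 of 17 for TIMELESS (up to 0.176), control replicate 2 left out among them. TIPIN, the partner of TIMELESS, was not tested and had raw counts of 10 and 14 in control and 1 and 10 in shControl libraries, which share the value 10.

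Among the genes of origin licensing, CDC6 was called lower. CDC6, which loads the helicase, had normalized counts of 17.7 and 31.4 in control and 2.36 and 12.2 in shControl libraries, a change of -1.71 ± 0.54 (edgeR adjusted p = 0.0189). That call was lost in 4 of 17 alternatives (edgeR or DESeq2 adjusted p up to 0.303), by DESeq2 and without control replicate 2 or shControl replicate 1. ORC2 to ORC5 had fold changes of -0.18 to 0.16 and ORC1 had -1.24 ± 0.62 (edgeR adjusted p = 0.151), none of which passed the test. Both shControl libraries of ORC1 lay below both control libraries, and the difference between CDC6 and the origin recognition genes was not tested. The 8 MCM genes had log2 fold changes of -1.45 to -0.31 with a median of -0.87, and none passed the test. MCM5, a subunit of the helicase ring, had 31.9 and 24.4 normalized counts in control and 5.91 and 14.5 in shControl libraries and came nearest to it (-1.44 ± 0.54, edgeR adjusted p = 0.0501). The other subunits gave -0.92 ± 0.50 for MCM2, -0.82 ± 0.35 for MCM3, -0.34 ± 0.30 for MCM4, -1.18 ± 0.45 for MCM6 and -0.79 ± 0.31 for MCM7. Of these 6 ring subunits, each had both senescent libraries below both control libraries, which held for 34.5% of all tested genes. They lay near the threshold in part, and MCM7 was called lower in 10 of 18 alternatives (adjusted p down to 0.00034), MCM5 in 7 of 17, MCM6 in 7 of 17 and MCM3 in 4 of 18, with library size alone and the fit of only the groups compared among them for each, and MCM2 and MCM4 with library size alone. Over the alternatives MCM7 ranged from -1.54, without shControl replicate 2, to -0.30. Its shControl libraries had normalized counts of 20.1 and 47.9, against 55.8 and 62.7 in control. CDC45, which joins the ring in the active helicase, had raw counts of 17 and 33 in control and 8 and 9 in shControl libraries (-1.16 ± 0.51, edgeR adjusted p = 0.0948), while GINS4, which overlaps another gene for most of its length, was called lower (-1.27 ± 0.46, edgeR adjusted p = 0.0429), a call lost in 8 of 17 alternatives (up to 0.365), any 1 of the control, shControl or shMETTL14 libraries left out among them.

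At the fork itself POLE and POLA1 were lower among 7 tested polymerase and primase genes, where 13.3% of all tested genes were lower. POLE, the catalytic subunit of the leading strand polymerase, had normalized counts of 63.8 and 69.7 in control and 22.5 and 36.7 in shControl libraries (-1.16 ± 0.33, edgeR adjusted p = 0.0101). POLA1, which starts both strands with the primase, had 101 and 108 against 62.7 and 60.1 (-0.77 ± 0.20, edgeR adjusted p = 0.00565). Neither gene had overlapping groups, but the call of POLA1 was lost in 5 of 18 alternatives (edgeR or DESeq2 adjusted p up to 0.101) and that of POLE in 4 of 18 (up to 0.193), both by DESeq2 and without control replicate 2 or shControl replicate 1, and POLA1 also without shControl replicate 2. Of the clamp and its loader, RFC5 alone was lower (-1.57 ± 0.52, edgeR adjusted p = 0.0237), and PCNA gave -0.58 ± 0.29 (edgeR adjusted p = 0.142). FEN1, the flap endonuclease of the lagging strand, was lower (-1.41 ± 0.47, edgeR adjusted p = 0.0263). The call of RFC5 was lost in 5 of 17 alternatives (edgeR or DESeq2 adjusted p up to 0.258), by DESeq2 and without either control library or shControl replicate 1, and that of FEN1 in 6 of 17 (up to 0.244), by DESeq2 and without any 1 of the control or shControl libraries. The 3 subunits of the single-strand binding protein RPA had changes of -0.71 to 0.42 and the chromatin assembly genes CHAF1A and CHAF1B of -0.59 and 0.58, none called.

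E2F7 (chr12:77415026-77459360 on hg19, minus strand) was the 1 gene of the 47 tested called higher in senescent shControl than in control cells, and its counts were deep enough to be read in every library. Its normalized counts were 62.0 and 73.2 in control, 463 and 424 in senescent shControl, 1589 and 1628 in shMETTL3 and 302 and 524 in shMETTL14 libraries. Both shMETTL3 libraries lay far above every other library, and the shMETTL14 libraries lay on either side of the shControl libraries. Senescent shControl cells stood above control cells by 2.71 ± 0.21 on the log2 scale (edgeR adjusted p = 6.27e-11). The other E2F and cyclin E genes were too thin to test. E2F1, an activator, had raw counts of 11 and 9 in control and 3 and 6 in shControl, 4 and 6 in shMETTL3 and 4 and 4 in shMETTL14 libraries. E2F2 had 5 and 1, then 1 and 1, then 0 in the 4 knockdown libraries, and E2F8 had 2 and 7, 2 and 1, 0 and 0, and 1 and 0. For these the group values were at or near the floor of 3 counts outside control. CCNE1, a cyclin E that activates CDK2, had 4 and 6 in control, 8 and 7 in shControl, 1 and 2 in shMETTL3 and 4 and 4 in shMETTL14 libraries. CCNE2 had 5 and 17, 6 and 9, 5 and 3, and 4 and 3.

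**Figure D3:**
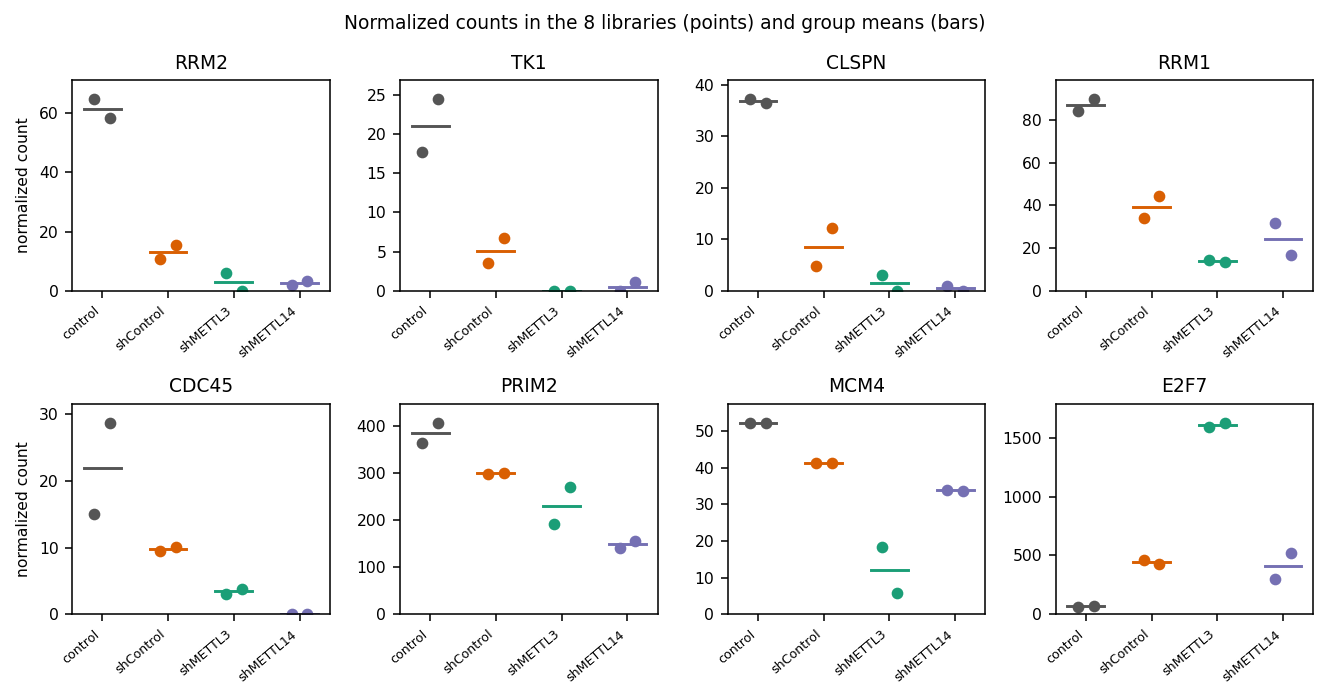
Normalized counts (vertical axes, each starting at 0) of 8 genes in the 8 libraries (points), with a bar at the mean of each group of 2. The means of RRM2, TK1 and CLSPN step down from control to shControl and again to both knockdowns. TK1 was not called in shMETTL14 against shControl (edgeR adjusted p = 0.0672). MCM4 is lowest in shMETTL3, PRIM2 and CDC45 are lowest in shMETTL14, and E2F7 is highest in shMETTL3 at 1589 and 1628.

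The second comparison set senescent shMETTL3 against senescent shControl cells. Of the 47 tested genes 6 were lower, where 11.2% of all tested genes were lower, and 1 was higher (E2F7), where 12.3% of all tested genes were higher. The share of lower genes, 12.8%, was thus near the background. The median log2 fold change was -0.31 against -0.03 for all tested genes, and by library size alone, which shifts the median of all genes by 0.58, it was 0.29, with 11 genes called higher and 3 lower. Both shMETTL3 libraries lay below both shControl libraries for 18 of the 47 genes, against 30.6% of all tested genes. They lay above both for 4 (ORC5, TYMS, FEN1 and E2F7), against 27.8% of all tested genes. Among the 40 genes not carried by control alone, 3 were lower. The count of lower genes was 12 without shMETTL3 replicate 1, 3 without shMETTL3 replicate 2 and 1 without shControl replicate 2.

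MCM4, the helicase subunit that shares a divergent promoter with a neighbouring repair gene, had normalized counts of 41.4 and 41.2 in shControl and 18.5 and 5.70 in shMETTL3 libraries. The change was -1.79 ± 0.38 (edgeR adjusted p = 0.00109). RRM1 fell further, from 34.3 and 44.5 to 14.4 and 13.3 (-1.51 ± 0.35, edgeR adjusted p = 0.00258). Both genes thus had separate levels in the 2 groups. RRM2 had raw counts of 9 and 14 in shControl and 6 and 0 in shMETTL3 libraries (-2.10 ± 0.69, edgeR adjusted p = 0.0281). TK1 had 3 and 6 against 0 and 0, at least 1.73-fold lower against a floor of 3 counts per library (edgeR adjusted p = 0.0154). CLSPN had 4 and 11 against 3 and 0, a ratio of 5.81 with an exact 95% counting interval of 1.64 to 31.3 (edgeR adjusted p = 0.0475). These rest on few reads, and intervals and floors cover counting error only. The call was lost in 10 of 15 alternatives for CLSPN (edgeR or DESeq2 adjusted p up to 0.452) and in 7 of 16 for RRM2 (up to 0.249), for both without shControl replicate 2 or shMETTL3 replicate 2. POLD3, a subunit of the lagging strand polymerase, had normalized counts of 21.3 and 20 against 9.23 and 6.65 (-1.37 ± 0.48, edgeR adjusted p = 0.0381), a call lost in 8 of 16 alternatives (adjusted p up to 0.219), leaving out either shControl library or shMETTL3 replicate 2 among them. TK1 lost its call without shControl replicate 2 or shMETTL3 replicate 2 (edgeR adjusted p up to 0.143), and RRM1 without shControl replicate 2 (edgeR adjusted p = 0.0577). E2F7 rose by 1.86 ± 0.17 (edgeR adjusted p = 9.52e-09). The remaining ring subunits gave -1.65 ± 0.69 for MCM2, -0.26 ± 0.40 for MCM3, -0.56 ± 0.69 for MCM5, -0.55 ± 0.55 for MCM6 and 0.26 ± 0.33 for MCM7, none called, and the sign of MCM3, MCM5 and MCM6 turned to above 0 with library size alone. MCM2 had 9 and 0 raw counts in the shMETTL3 libraries, and its value rests on them. It was called lower without shMETTL3 replicate 1 (edgeR adjusted p = 0.00057), where the group left is at 0 and the fitted fold is no bound, and with no filter on low counts, whereas without shMETTL3 replicate 2 it gave -0.65 (edgeR adjusted p = 0.514). MCM5, with 13 and 1 raw counts in these libraries, was also called lower without shMETTL3 replicate 1 (edgeR adjusted p = 0.0189), where its fitted -3.29 rests on 1 count.

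The third comparison set senescent shMETTL14 against the same shControl libraries. Of the 47 genes 5 were lower, where 12% of all tested genes were lower, and none was higher by edgeR, also at an unadjusted p below 0.05, or by DESeq2, where 9.15% of all tested genes were higher by edgeR. The lower share of 10.6% was again near the background, and the median was -0.30 against 0.00 for all tested genes, turning to 0.05 by library size alone, where the median of all genes shifts by 0.35. Both shMETTL14 libraries lay below both shControl libraries for 22 of the 47 genes, against 32.1% of all tested genes. They lay above both for 5 (POLD1, POLE2, RPA3, TYMS and FEN1), against 32.2% of all tested genes. Of the 5 lower genes, the filter was passed only through control by all but PRIM2. Among the 40 genes not carried by control alone 1 was thus lower, where 12% of all tested genes were. PRIM2, the large primase subunit, had normalized counts of 298 and 299 in shControl and 141 and 156 in shMETTL14 libraries (-1.01 ± 0.16, edgeR adjusted p = 3.97e-05). It was the deepest of the 59 genes after E2F7 in these libraries. CDC45 had raw counts of 8 and 9 in shControl and 0 and 0 in shMETTL14 libraries, at least 3.16-fold lower against 3 counts per library (edgeR adjusted p = 0.00162). MCM10, an initiation factor bound to the helicase, had 4 and 4 against 0 and 0, at least 1.49-fold lower (edgeR adjusted p = 0.0347), a call lost in 8 of 15 alternatives (adjusted p up to 0.216), leaving out any 1 of the control, shControl or shMETTL14 libraries among them. RRM2 had 9 and 14 against 2 and 3 (-2.31 ± 0.72, edgeR adjusted p = 0.0224). CLSPN had 4 and 11 against 1 and 0, a ratio of 16.8 with an exact 95% counting interval of 2.58 to 706 (edgeR adjusted p = 0.0142). The call was lost in 4 of 16 alternatives for RRM2 (edgeR or DESeq2 adjusted p up to 0.181) and in 4 of 16 for CLSPN (up to 0.224), for both by DESeq2 and without shControl replicate 2 or shMETTL14 replicate 2, and for RRM2 also without shMETTL14 replicate 1. E2F7 gave -0.10 ± 0.18 (edgeR adjusted p = 0.727). Over 18 alternatives its value ranged from -0.56 to 0.23 and turned sign in 2, with normalized counts of 302 and 524 in the shMETTL14 libraries. MCM2 to MCM7 gave changes of -1.26 to -0.16, none called, of which MCM2, MCM3, MCM4 and MCM5 turned to above 0 with library size alone. MCM7 ranged from -1.29 to -0.05 over its 18 alternatives. Without shControl replicate 2, 2 genes were lower, and without shMETTL14 replicate 1, 3 were. Leaving out either shMETTL3 library, which is in neither group but enters the filter, the scaling and the shared estimate of spread, gave 8.

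The knockdowns were then compared with each other, with the shControl libraries in neither group, though they enter the shared fit. Of the 47 genes 5 were lower in shMETTL14 than in shMETTL3 cells, where 18.7% of all tested genes were lower, and 1 was higher, where 16.5% of all tested genes were higher. The median was 0.01 for the 47 and 0.01 for all tested genes. E2F7 was lower by shMETTL14 than by shMETTL3 with a log2 difference of -1.96 ± 0.17 (edgeR adjusted p = 3.39e-09). PRIM2 had normalized counts of 192 and 269 in shMETTL3 against 141 and 156 in shMETTL14 libraries (-0.64 ± 0.16, edgeR adjusted p = 0.00325). ORC5, an origin recognition subunit, had 82.1 and 93.0 against 40 and 56.9 (-0.86 ± 0.22, edgeR adjusted p = 0.0037). In each of these 3 genes the libraries of the knockdowns did not overlap. MCM7 had 41.0 and 40.8 against 16 and 23.2 (-1.06 ± 0.35, edgeR adjusted p = 0.0204). CDC45 had raw counts of 3 and 4 against 0 and 0, at least 1.12-fold lower (edgeR adjusted p = 0.0281). MCM4 was higher in shMETTL14 cells, at 34.0 and 33.7 against 18.5 and 5.70 (1.5 ± 0.39, edgeR adjusted p = 0.00372). Without shMETTL3 replicate 2, which has the low value of MCM4, no gene was called higher, and without shMETTL3 replicate 1 there were 5. The lower genes numbered 3 without shMETTL3 replicate 2 and 2 without shMETTL14 replicate 1. The call of E2F7 was kept in all 18 alternatives. That of CDC45 was lost in 5 of 16 (edgeR or DESeq2 adjusted p up to 0.152) and that of MCM7 in 3 of 18 (up to 0.191), both by DESeq2 and without shMETTL14 replicate 1. PRIM2 lost its call in 2 of 18 (up to 0.305), where the difference went down to -0.20, with a gene length offset and without shMETTL3 replicate 2. ORC5 lost it without shMETTL14 replicate 1 (edgeR adjusted p = 0.11) and MCM4 without shMETTL3 replicate 2 (edgeR adjusted p = 0.081).

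Against control cells, both knockdowns were set beside the shControl values, sharing the control libraries with them and with each other. In shMETTL3 cells 25 of the 47 genes were lower, where 20.1% of all tested genes were lower, and E2F7 alone was higher, where 20.1% of all tested genes were higher. In shMETTL14 cells 20 of the 47 were lower, where 20.5% of all tested genes were lower, and E2F7 alone was higher, where 19.7% of all tested genes were higher. The medians were -0.84 and -0.90, against -0.05 and 0.00 for all tested genes, and stayed below 0 at -0.74 and -1.05 by library size alone. Both libraries lay below both control libraries for 39 of the 47 genes in shMETTL3 (35.4% of all tested genes) and for 37 in shMETTL14 cells (36.5%). Without the 7 genes carried by control alone (MCM10, ORC1, CDC45, GINS1, RRM2, TK1 and CLSPN), which had to stand higher in control, 19 and 13 of 40 were lower. The medians of these 40 were -0.75 and -0.66. All 7 are also among the 39 and the 37, so those counts include genes that had to stand higher in control. DESeq2 called 12 and 13 lower.

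By role, and leaving out MCM10, which passed the filter through control alone, 5 of 7 MCM genes were lower than control in shMETTL3 (MCM2, MCM3, MCM4, MCM5 and MCM6) and 4 of 7 in shMETTL14 cells (MCM3, MCM5, MCM6 and MCM7). Of all tested genes, 20.1% and 20.5% were lower in these comparisons. In shMETTL3 cells the call was lost in 4 of 18 alternatives for MCM3, in 3 of 17 for MCM5 and in 2 of 17 for MCM6, and in shMETTL14 cells in 4 of 18 for MCM3 and in 5 of 17 for MCM5, by DESeq2 and without control replicate 1 in each case but that of MCM6, which was lost by DESeq2 and without control replicate 2. MCM4 gave -2.13 ± 0.36 in shMETTL3 (edgeR adjusted p = 2.79e-05) and -0.62 ± 0.30 in shMETTL14 cells (edgeR adjusted p = 0.103), and MCM7 gave -0.53 ± 0.29 (edgeR adjusted p = 0.151) and -1.60 ± 0.33 (edgeR adjusted p = 0.000332). MCM4 and MCM7 are also the MCM genes called in the direct comparison of the knockdowns. Of the 5 tested firing genes CDC45, GINS1, GINS4 and DBF4 were lower in each knockdown, with CDC45 at -2.62 ± 0.60 in shMETTL3 (edgeR adjusted p = 0.0009) and at least 7.11-fold lower in shMETTL14 cells. CDC45 and GINS1 passed the filter through control alone, and without them GINS4 and DBF4 were lower of 3 genes, with GINS4 uncertain for its overlap of 67.8%. The call of GINS4 was lost in 5 of 17 alternatives in shMETTL3 (edgeR or DESeq2 adjusted p up to 0.167) and that of DBF4 in 6 of 17 in shMETTL14 cells (up to 0.235), for both by DESeq2 and without either control library, with shMETTL3 replicate 1 for GINS4 and either shMETTL14 library for DBF4 besides. DBF4 is the activating subunit of the CDC7 kinase, and CDC7 itself was not called in either.

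RRM1 stood at -2.64 ± 0.31 in shMETTL3 (edgeR adjusted p = 9.44e-08) and -1.82 ± 0.28 in shMETTL14 cells (edgeR adjusted p = 8.18e-06), calls kept in all 18 alternatives of each. TYMS gave -0.78 ± 0.31 in shMETTL3 (edgeR adjusted p = 0.0434), a call lost in 11 of 18 alternatives (edgeR or DESeq2 adjusted p up to 0.296), control replicate 2, shMETTL3 replicate 1 or either shMETTL14 library left out among them, and -0.69 ± 0.30 in shMETTL14 cells (edgeR adjusted p = 0.0723). RRM2, TK1 and CLSPN passed the filter through control alone and so had to stand higher there, and their values are given as a description. RRM2 had fitted differences of -4.32 ± 0.52 in shMETTL3 and -4.52 ± 0.54 in shMETTL14 cells. TK1 was at least 7.10-fold lower in shMETTL3 cells, and in shMETTL14 cells its ratio to control was 41.1 with an exact 95% counting interval of 7.03 to 1657. CLSPN had ratios of 24.9 (8.24 to 123) and 71.9 (12.6 to 2874). POLE gave -1.74 ± 0.35 in shMETTL3 (edgeR adjusted p = 0.000216) and -1.73 ± 0.35 in shMETTL14 cells (edgeR adjusted p = 0.000243), and PRIM2 gave -0.74 ± 0.15 (edgeR adjusted p = 0.000244) and -1.37 ± 0.16 (edgeR adjusted p = 6.38e-08). The single-strand binding subunits were called in neither. E2F7 was higher by 4.57 ± 0.20 (edgeR adjusted p = 1e-15) in shMETTL3 and 2.61 ± 0.21 (edgeR adjusted p = 6.6e-11) in shMETTL14 cells, and it was called in all 18 alternatives run for each of these comparisons.

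**Figure D4:**
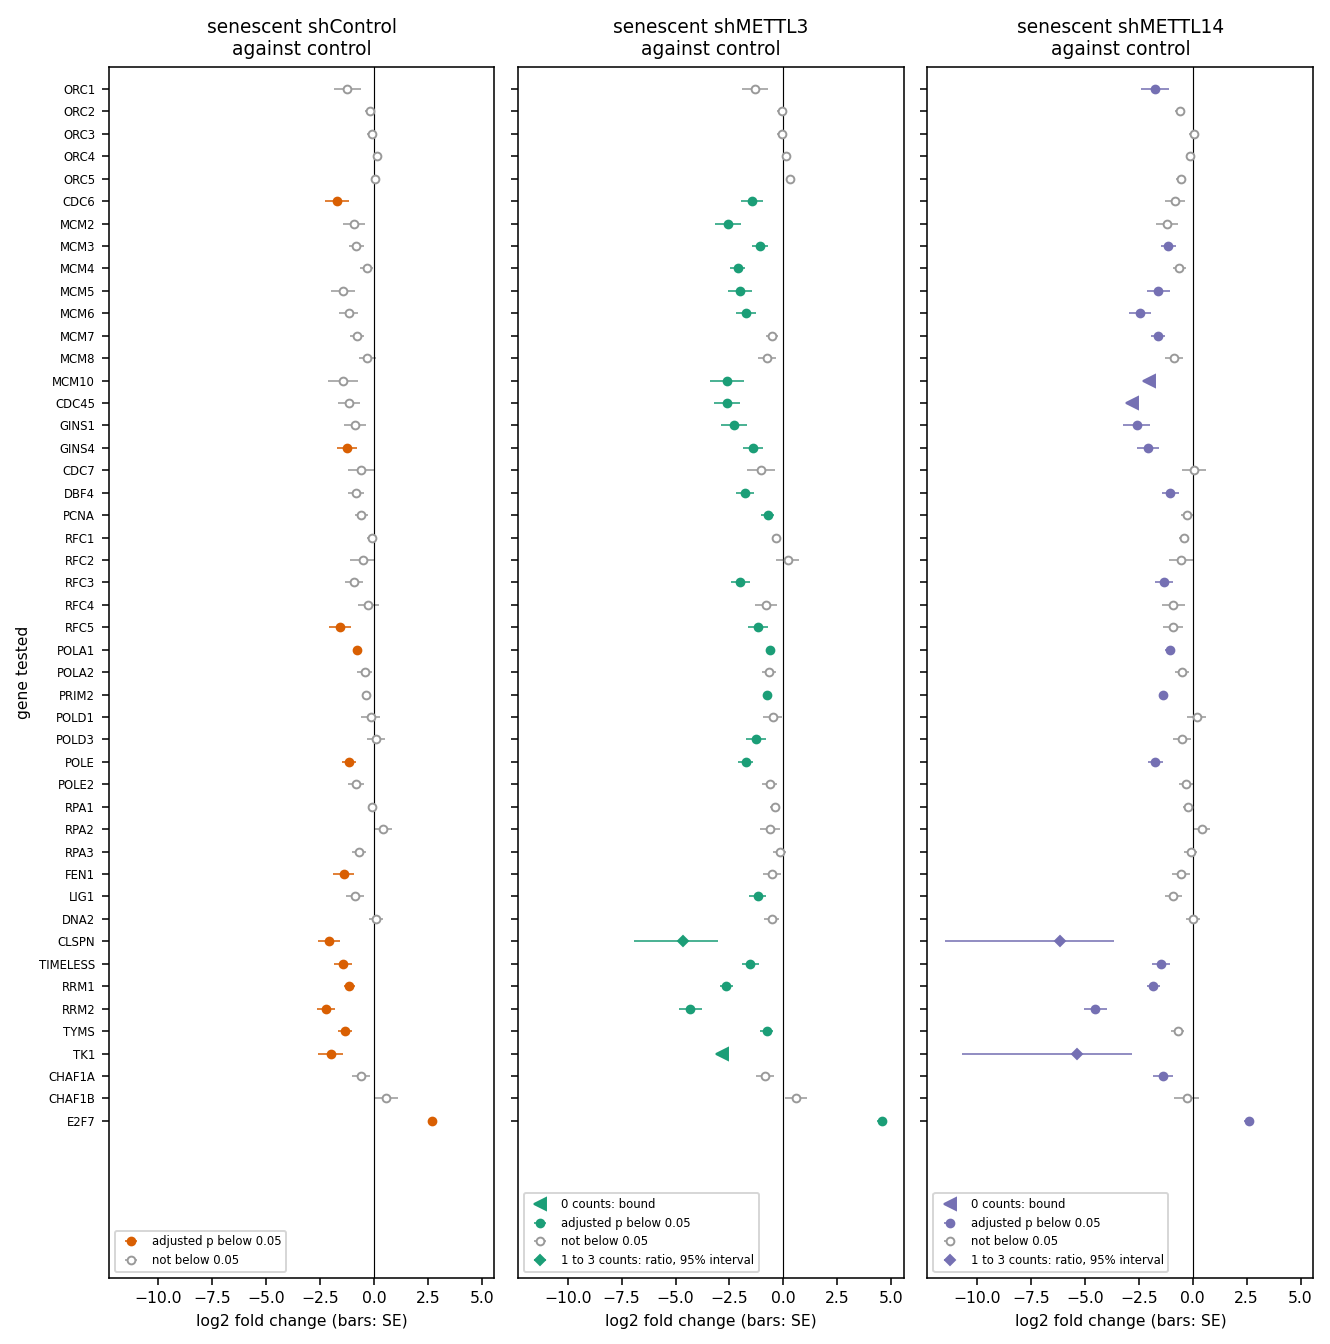
Log2 fold changes against control of the 47 tested genes (rows, by role) in senescent shControl, shMETTL3 and shMETTL14 cells, with standard errors, filled where the adjusted p is below 0.05. Triangles are bounds for groups with 0 counts and diamonds are ratios with exact 95% counting intervals for groups with 1 to 3 counts, and E2F7 in the last row is the 1 filled point to the right of 0 in each panel.

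Levels were compared between genes only per kilobase of gene body. In control cells RRM2 had the highest level of the 59 at 6.95 normalized counts per kilobase, followed by MCM7 at 6.43, PCNA at 4.71 and FEN1 at 4.67. In senescent shControl cells RRM2 ranked 6 at 1.48, in shMETTL3 cells 28 at 0.348 and in shMETTL14 cells 40 at 0.291. E2F7 ranked 12 in control cells at 1.52 and 1 in each senescent group, at 10.0, 36.3 and 9.32. PCNA and FEN1 stayed among the 5 highest in every group, and MCM7 ranked 2, 2 and 4 in the senescent groups.

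Promoter letters were set beside the change. Of the 17 tested genes with an E2F consensus match 5 were lower in senescent shControl cells, 12 in shMETTL3 and 8 in shMETTL14 cells against control, where 13.3%, 20.1% and 20.5% of all tested genes were lower, with median log2 fold changes of -0.89, -1.08 and -1.07. Of the 23 tested genes whose window had no match 6, 9 and 10 were lower, with medians of -0.59, -0.78 and -0.90. Without the genes that passed the filter through control alone (CLSPN and GINS1 among the first, and RRM2, TK1, CDC45, MCM10 and ORC1 among the second), 4, 10 and 6 of 15 genes with a match were lower, with medians of -0.83, -0.78 and -0.90. Of the 18 left without a match 4, 5 and 5 were lower, with medians of -0.31, -0.52 and -0.54. RRM2, CDC45 and E2F7, whose stretches are printed above, were among the genes without a match. The difference between these sets was not tested.

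Of 57 further genes of replication, E2F control and the G1 cyclins, 54 were tested, and 14 were lower (25.9%, against 13.3% of all tested genes) and 4 higher (7.41%, against 13.3%) in senescent shControl than in control cells. CCNA2, CDC25A, CDK1, CHTF18, DTL and MYBL2 passed the filter through control alone, and without them 10 of 48 were lower (20.8%). UHRF1, which brings the maintenance methyltransferase to replicated DNA, gave -1.40 ± 0.30 (edgeR adjusted p = 0.000807), CDK1, the mitotic kinase, -2.74 ± 0.64 (edgeR adjusted p = 0.00189) and MCM9, an MCM relative of DNA repair, -1.13 (edgeR adjusted p = 0.00367), of which MCM9 is uncertain because 12.8% of its body overlaps ASF1A. RRM2B, the p53-induced small subunit of ribonucleotide reductase, was higher by 1.19 ± 0.18 (edgeR adjusted p = 1.06e-05), in contrast to its paralog RRM2, and the D cyclins CCND1 and CCND2 by 0.75 ± 0.13 (edgeR adjusted p = 6.85e-05) and 0.88 ± 0.29 (edgeR adjusted p = 0.0218), the latter with 7.74% of its body under an antisense gene. Against shControl, 6 of the 54 were lower (11.1%, against 11.2% of all tested genes) and 5 higher (9.26%, against 12.3%) in shMETTL3 cells, so that neither share stood above the background. In shMETTL14 cells 9 were lower (16.7%, against 12%) and 1 higher (1.85%, against 9.15%). Without the 6 genes carried by control alone 5 of 48 were lower in shMETTL3 (10.4%) and 6 of 48 in shMETTL14 cells (12.5%), both near the background. CCND1 fell in both, by 0.73 in shMETTL3 (edgeR adjusted p = 0.000142) and by 0.63 in shMETTL14 cells (edgeR adjusted p = 0.000741). RRM2B had normalized counts of 86.8 and 77.5 in control, 188 and 187 in shControl, 262 and 342 in shMETTL3 and 125 and 160 in shMETTL14 libraries, so that it was highest in the group in which E2F7 was highest. E2F3, an activating E2F with counts enough to test, was higher in shMETTL3 than in shControl cells by 0.55 ± 0.15 (edgeR adjusted p = 0.00944). RB1, the retinoblastoma protein that holds E2F in check, was lower in shMETTL14 than in shControl cells (-0.83 ± 0.18, edgeR adjusted p = 0.00159), and is uncertain because 18.9% of its body overlaps LPAR6. Against control, 18 of the 54 were lower (33.3%, against 20.1%) and 4 higher (7.41%, against 20.1%) in shMETTL3, and 27 lower (50%, against 20.5%) and 5 higher (9.26%, against 19.7%) in shMETTL14 cells. Without the 6 genes carried by control alone, 12 of 48 were lower in shMETTL3 (25%, against 20.1% of all tested genes). In shMETTL14 cells 21 of 48 were (43.8%, against 20.5%).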

How the data were processed

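Nascent RNA of 8 IMR90 libraries in 4 groups of 2 was measured by fastGRO-seq. The authors aligned the reads to hg19 with STAR and deposited raw counts per gene, which the file header shows were made with HOMER over whole gene bodies (analyzeRepeats.pl, condensed to 1 row per gene). The header names a strand setting, yet in 60 of 61 nested pairs on opposite strands with at least 100 mean counts the outer gene was not lower than the inner in any library, so strands were taken as not separated. No column of per-sample values was left unused. Row positions are those of hg19, and promoter windows are RefSeq's on GRCh38.p14.

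Counts were normalized by TMM, filtered by filterByExpr (minimum count 10) and fitted over all 4 groups by edgeR 4.0.16 quasi-likelihood in R 4.3.3. The study used DESeq2, which was run here as an alternative (1.42.0). In each of 6 comparisons a gene counted as called when its p-value, adjusted by Benjamini-Hochberg over 12844 genes, was below 0.05. The biological coefficient of variation was 10.6%. The fit was tested on simulated data, in which most changes of genes as thin as most members were missed, so a gene that was not called is not shown to be unchanged. Replicate numbers came from the sample titles. Same-numbered libraries correlated at -0.04 to 0.10, so the numbers were not used as pairs. Plots were drawn with matplotlib 3.10.9.

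The members and lists were chosen with earlier results of these data known. Named with values are MCM2 to MCM7, the E2F and cyclin E genes, up to 8 called members per direction and comparison with the smallest adjusted p, members called against the majority direction or between the knockdowns, untested members, METTL3 and METTL14, check genes, and up to 3 further pathway genes per direction. Where a further gene is named beyond that rule, it was chosen after its values were seen. Alternatives covered DESeq2, normalization, filters, fits of only the groups compared, replicate block, a gene length offset, stricter thresholds and each library left out.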

Additional observations from a re-analysis of the deposited data

Results flagged for a closer look

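The 6 genes below differed between the knockdowns in a direct test of senescent shMETTL14 against senescent shMETTL3 cells, so the effect of the hairpin against shControl was not equal in the 2 knockdowns. Of the 47 tested members 5 were lower (10.6%) and 1 was higher (2.13%), where 18.7% and 16.5% of all tested genes were. Neither share of the members stood above the background. The log2 difference was -1.96 for E2F7, -0.64 for PRIM2, -0.86 for ORC5, -1.06 for MCM7 and 1.5 for MCM4 (edgeR quasi-likelihood, adjusted p-values of 3.39e-09, 0.00325, 0.0037, 0.0204 and 0.00372). For CDC45 the fitted difference of -4.84 (edgeR adjusted p = 0.0281) is no bound, since both shMETTL14 libraries were at 0 counts, and against 3 counts per library CDC45 was at least 1.12-fold lower. E2F7 kept its call in all 18 alternatives, while it was lost in 5 of 16 for CDC45 (edgeR or DESeq2 adjusted p up to 0.152), in 3 of 18 for MCM7 (up to 0.191), in 2 of 18 for PRIM2 (up to 0.305), in 1 of 18 for ORC5 (0.11) and in 1 of 17 for MCM4 (0.081). Groups of 2 libraries were too small to search for single outlying samples.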

How the results depend on the processing

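Numbers of members lower in senescent shControl against control, shMETTL3 against shControl, shMETTL14 against shControl, shMETTL14 against shMETTL3, shMETTL3 against control and shMETTL14 against control were 12, 6, 5, 5, 25 and 20. With DESeq2 they were 2, 2, 2, 3, 12 and 13, and with DESeq2 on the genes tested by edgeR, an alternative chosen after seeing the data, all but the last were 4, 3, 3, 3 and 15. Library size alone gave 34 and 3 lower in the first and second comparisons and 11 and 2 higher for shMETTL3 and shMETTL14 against shControl. At least 10 counts in every library left 22 members, of which 6, 2, 1, 7 and 9 were lower in all but the fourth comparison, in that order, and the loss comes with fewer genes tested. Only the groups compared gave 20, 2 and 2 lower in the comparisons before the fourth. An adjusted p below 0.01 left 6, 2, 2, 3 and 16 lower in all but the last, and a minimum size of 1 on the log2 scale left 3 in the fourth. Leaving out each library in turn gave 1 to 18, 1 to 12, 2 to 8, 2 to 7, 17 to 26 and 15 to 27 lower, with 1 to 2 higher in the second and 0 to 5 higher in the fourth comparison. The replicate block gave 14, 5, 4, 5, 23 and 20 lower, and moved no count of calls by over 1.5 times, while the replicate numbers do not pair the libraries. Signs turned for members that were not called. By library size alone MCM3, MCM5 and MCM6 gave 0.36, 0.027 and 0.064 for shMETTL3 against shControl and MCM2, MCM3, MCM4 and MCM5 gave 0.071, 0.032, 0.065 and 0.19 for shMETTL14 against shControl. With 1 library left out, shMETTL3 against shControl ranged from -0.65 to 0.013 for MCM3, from -3.29 to 0.35 for MCM5 (0.22 without shControl replicate 2) and from -0.23 to 1.01 for MCM7, and shMETTL14 against shControl ranged from -0.61 to 0.14 for MCM2 and from -0.64 to 0.63 for MCM5 (0.093 without shMETTL14 replicate 2). Except where a sentence above names fewer genes, the cause was not tested. Leaving out either shControl library ended 10 calls of named members, and no other single library ended more than 7. E2F7 kept its call and direction in all 18 alternatives of each comparison in which it was called. Depth limits these results, since the median member tested had 19.5 counts per library and each group had 2 libraries.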
